A study of Mus musculus with 2 samples.

Results

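The replication-dependent histone genes encode the bulk of the histone proteins around which newly copied DNA is wrapped. They were taken from the deposited gene table by symbol, as the genes named H1f1 to H1f6 or with an H2ac, H2bc, H3c or H4c symbol and a number. Of the 17260 genes in the table, 53 matched, namely 5 linker histone H1 genes, 14 H2A genes, 14 H2B genes, 10 H3 genes and 10 H4 genes. RefSeq lists 63 protein-coding genes with symbols of this form, so counts and sums by type below cover only the genes in the table. Messenger RNA was measured in 1 library of mouse embryonic fibroblasts labelled Ahi1-/- and 1 library of WT fibroblasts. Both cultures were of the C57BL/6 strain, came from embryos at day 13.5 and were grown in DMEM with 10% serum, and each DNBSEQ library was made from 1 ug of total RNA. Ahi1 encodes a protein at the base of the primary cilium. The sources used here do not give the Ahi1 exons removed, how many embryos were pooled or the passage, so each genotype is 1 culture of unknown makeup. Each genotype has 1 library, so no difference was tested or checked in replicates, and the 95% intervals below cover counting error only.

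Replication-dependent histone genes sit in dense clusters, have no introns, and are transcribed when DNA is copied in S phase. Their mRNAs end in a conserved stem-loop instead of a poly(A) tail, and the stem-loop binding protein SLBP and the U7 small nuclear RNP cut them there. Protocols that capture or prime on a poly(A) tail lose much of this RNA, and some histone genes also give polyadenylated mRNA in cells that leave the cycle. The sources used here do not say whether poly(A) RNA was selected for these libraries, so a level below is the level of the histone RNA that the library held, not of all histone RNA in the cells.

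The library labelled Ahi1-/- held 20820756 expected counts and the WT library 19067504. Ahi1 itself had 370 counts (8.43 TPM) in the library labelled Ahi1-/- and 410 counts (9.12 TPM) in WT, with a log2 ratio of -0.16 and an interval from -0.37 to 0.05. This gene level therefore does not check the genotype label, and direction below is that of the library labelled Ahi1-/- relative to WT. Of 10 fibroblast markers, 8 were higher by 2-fold or more and 0 lower in the library labelled Ahi1-/-, with summed levels of 21546 TPM there and 8075 TPM in WT. Of 5 erythroid markers, 5 were lower, and their summed count was 101 in the library labelled Ahi1-/- against 6805 in WT. Over all genes with at least 50 counts in 1 library, 16% were higher and 10.3% lower by 2-fold or more. Leukocyte markers summed to 181 counts in the library labelled Ahi1-/- and 186 in WT, endothelial markers to 32 in the Ahi1-/- library and 44 in WT, and epithelial markers to 689 in the Ahi1-/- library and 290 in WT.

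The stem-loop that marks these mRNAs was found in the reference transcripts of most members. The motif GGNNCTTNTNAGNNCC was searched on the coding strand after the stop codon of GENCODE M21 transcripts, and 36 members held it. Of 38 members whose transcript runs at least 60 bases past the stop, 35 had it within 100 bases. Of 20202 other coding genes with at least 100 bases past the stop, 12 had it there (0.0594%). Other means outside the 53 members, so the 12 can include histone genes that the table does not hold. Of the 53 members, 11 had no transcript model that runs past the stop codon, H2ac13 among them, and no stem-loop can be read for these. A stem of the same 16 bases, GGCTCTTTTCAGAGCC, was shared by 22 members of types H1, H2A, H2B and H3, while 5 H4 genes had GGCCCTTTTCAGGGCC. The genes below carry the largest counts or the largest ratios, and their stem-loops are shown 5′ to 3′ in GRCm38 with the motif in capitals.
H2ac24 (chr13:21833026-21833049, minus strand): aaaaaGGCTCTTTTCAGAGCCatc
H2ac23 (chr13:21810893-21810918, plus strand): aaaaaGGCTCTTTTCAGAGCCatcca
H2ac18 (chr3:96246027-96246052, plus strand): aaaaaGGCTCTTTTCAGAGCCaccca
H1f2 (chr13:23739507-23739532, plus strand): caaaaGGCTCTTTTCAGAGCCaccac
H3c15 (chr3:96238480-96238505, minus strand): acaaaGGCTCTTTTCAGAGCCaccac
H4c18 (chr13:21831793-21831818, minus strand): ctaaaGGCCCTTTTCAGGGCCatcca
H2ac23 and H2ac24, with lower counts in the Ahi1-/- library than in WT, had the same 16 bases as H1f2, H2ac18 and H3c15, whose counts were higher there. H4c18 had another stem. The RefSeq gene end lay within 10 bases past the stem-loop in 33 of the 36 members with the motif. In 17 of them, H1f2 and H3c15 included, a GENCODE transcript also ran at least 100 bases past it. H2ac18, H2ac23 and H2ac24 were not among those 17. The models of H2bc4, H2bc23 and H2bc21 held no match.

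Many members are near-identical copies, and reads can be shared between them. All 10 H4 genes encode 1 protein, 8 of the H2A genes encode another, and the 53 members encode 24 distinct proteins. Coding sequences of equal length were 81.4% to 100% identical among H2A genes (median 96.9%) and 87.8% to 98.4% among H4 genes (median 93.9%). H2ac23 and H2ac24 had the same coding sequence, base for base, and so had H2ac18 and H2ac19. H2ac13 differed from H2ac24 at 6 coding positions and encodes the same protein. With H2ac24 as the first base and positions counted from 1 at the start codon, these are T24C, C51T, C150G, A387G, A390G and A392G. Stretches of 50 bases that also occur in another gene made up 93.1% of the H2ac24 transcript, 93.5% of H2ac23, 90.1% of H2ac13 and 100% of H2ac18. The share was 30.6% for H2bc4 and 8.54% for H1f2, over models of 1156 and 1560 bases. In their coding sequences alone it was 97.6% for H2bc4 and 21.9% for H1f2. The median share was highest for H2A at 82.3%, and it was 57.2% for H3, 46.8% for H2B, 34.2% for H4 and 2.25% for H1. Model lengths differ, so this ranking also depends on how far the models run past the coding sequence. H1f3 had 2.25% over a model of 7425 bases and 26.4% in its coding sequence. H4c9 had 28.9% over 727 bases and 70.3% in its coding sequence. In H1f4, H2ac21 and H3c6 the coding share was the lower one. An estimated count is a fraction where a read was divided, and 41 of the 46 members above 0 in the library labelled Ahi1-/-, and 39 of 42 in WT, had fractional counts. Single values of core histone genes are therefore uncertain between copies, and sums by type are given beside them.

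Most members were near the detection limit. Only 8 of the 53 reached 50 counts in 1 of the libraries, and the other 45 had at most 49 counts and at most 10.2 TPM. Over both libraries, 30 members had at least 10 counts summed and are called measured here, and 23 had fewer. In the library labelled Ahi1-/-, 7 members were at 0, against 11 in WT, and none was at 0 in both. The whole table of 17260 genes also had fewer at 0 in the library labelled Ahi1-/-, 739 against 1232 in WT. Of the 8 members with at least 50 counts, 5 were at least 2-fold higher and 3 at least 2-fold lower in the library labelled Ahi1-/-. Over all 12075 genes with that minimum, 16% were higher by this rule, 10.3% lower and 26.4% either. H2ac13, H2ac18, H2ac23, H2bc23 and H3c15 reached 50 counts in only 1 library, so counts of called members are a description. The 30 measured members had a median log2 ratio of 0.31 and a range from -7.65 to 3.50, with 16 above 0 and 14 below. The median over all 14485 measured genes was -0.01, with 7139 above 0 and 7346 below. The counting interval lay above 0 for 9 measured members, below 0 for 6, and held 0 for 15. The share of all genes by this interval rule was not computed, so these counts only describe the members.

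**Figure D1:**
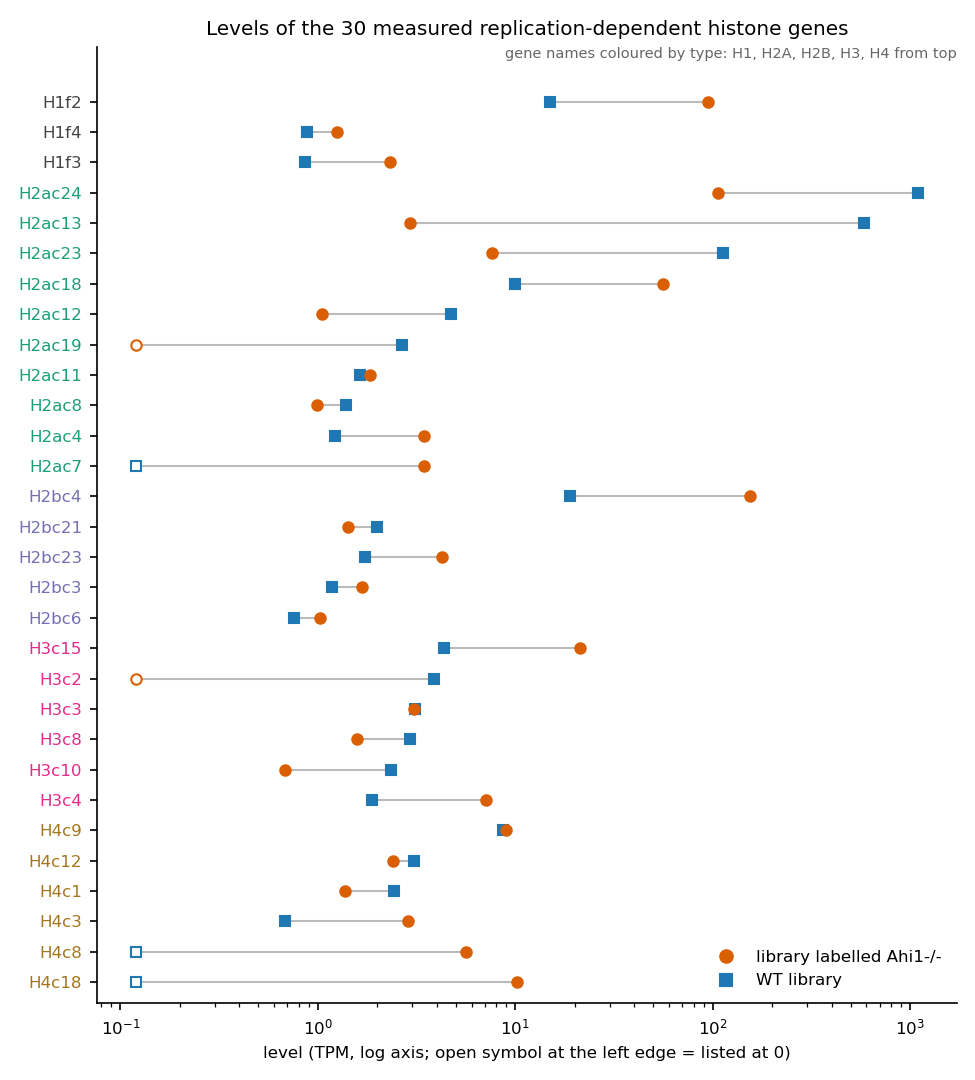
Level in TPM (log axis) of each of the 30 measured histone genes in the library labelled Ahi1-/- (orange circles) and in the WT library (blue squares), by histone type from H1 at the top to H4; an open symbol at the left edge is a gene listed at 0. H2ac24, H2ac13 and H2ac23 reach 1093, 584 and 112 TPM in WT, above every other member in either library except H2bc4 at 155 TPM in the library labelled Ahi1-/-.

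Linker histones, which bind the DNA between nucleosomes, were higher in the library labelled Ahi1-/- through 1 gene, H1f2. H1f2 had 585 counts, 29.2 CPM and 94.6 TPM in the library labelled Ahi1-/-, against 95 counts, 4.79 CPM and 15.1 TPM in WT, which made it 6.10-fold higher (interval 4.91 to 7.66, log2 2.61). Its TPM rank among all genes was 1841 in the library labelled Ahi1-/- and 7552 in WT. H1f2 shared 21.9% of its coding stretches with other genes, against 97.6% for H2bc4, so its count is among the better resolved. H1f3 had 15 counts in the Ahi1-/- library and 6 in WT, H1f4 had 8 in the Ahi1-/- library and 6 in WT, and the interval of each held 0. H1f1 (5 in the Ahi1-/- library, 1 in WT) and H1f5 (3 in the Ahi1-/- library, 2 in WT) were not measured. Summed over the 5 genes, H1 had 617 counts and 99.5 TPM in the library labelled Ahi1-/-, against 110 counts and 17.2 TPM in WT, a 5.56-fold higher level (log2 2.47, interval 2.18 to 2.78). Without H1f2 the sum was 32 counts in the library labelled Ahi1-/- and 15 in WT, with a log2 ratio of 1.08 and an interval from 0.15 to 2.07.

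Core histone H2A, which pairs with H2B in the nucleosome, was lower in the library labelled Ahi1-/-, and 3 genes carried this. H2ac24 had 390 counts, 19.5 CPM and 106 TPM in the library labelled Ahi1-/-, against 4126 counts, 208 CPM and 1093 TPM in WT, which made it 10.7-fold lower (interval 9.62 to 11.9, log2 -3.42). H2ac13 had 11 counts, 0.55 CPM and 2.92 TPM in the library labelled Ahi1-/-, against 2184 counts, 110 CPM and 584 TPM in WT, and was 200-fold lower (interval 112 to 402, log2 -7.65). H2ac23 had 35 counts, 1.75 CPM and 7.65 TPM in the library labelled Ahi1-/-, against 528 counts, 26.6 CPM and 112 TPM in WT, and was 15.2-fold lower (interval 10.8 to 22.1, log2 -3.93). By TPM among all genes, H2ac24 ranked 1626 in the library labelled Ahi1-/- and 142 in WT, and H2ac13 ranked 11180 in the library labelled Ahi1-/- and 224 in WT. These 3 genes encode the same protein and can share reads. Their sum, a grouping made after their values were seen, was 436 counts and 116 TPM in the library labelled Ahi1-/-, against 6838 counts and 1789 TPM in WT, 15.8-fold lower (log2 -3.98, interval -4.13 to -3.84). They held 15.7% of the members' counts in the library labelled Ahi1-/- and 92.2% in WT. Erythroid markers moved the same way. Hba-a1 had 78 counts in the library labelled Ahi1-/- and 5284 in WT, and Hbb-bs had 15 in the Ahi1-/- library and 1034 in WT. Alas2 had 3 counts in the Ahi1-/- library and 209 in WT, Hbb-bt had 5 in the Ahi1-/- library and 153 in WT, and Hba-a2 had 0 in the Ahi1-/- library and 125 in WT. The summed erythroid level was 20.5 TPM in the library labelled Ahi1-/- and 1359 TPM in WT, and its part in the H2A result was not tested. In such bulk RNA, fewer cells of a type and less RNA per cell cannot be told apart.

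H2ac18, on chromosome 3, went the other way from these 3 genes. It had 260 counts, 13 CPM and 56.0 TPM in the library labelled Ahi1-/-, against 47 counts, 2.37 CPM and 9.95 TPM in WT, which made it 5.48-fold higher (interval 4.01 to 7.65, log2 2.45). Its copy H2ac19 had 0 counts in the library labelled Ahi1-/- and 14 in WT. With the 0 set to a floor of 3 counts it was 4.71-fold lower (interval from 3.35-fold). Since both have 1 coding sequence, the pair is better read as a sum, 260 counts in the library labelled Ahi1-/- and 61 in WT (log2 2.08, interval 1.67 to 2.51). H2ac7 had 15 counts in the Ahi1-/- library and 0 in WT, 4.96-fold higher with the same floor (interval from 3.55-fold). H2ac12 had 5 counts in the Ahi1-/- library and 21 in WT, with a log2 ratio of -2.08 and an interval from -3.85 to -0.64. The intervals of H2ac4 (14 in the Ahi1-/- library, 5 in WT), H2ac8 (5 in the Ahi1-/- library, 7 in WT) and H2ac11 (7 in the Ahi1-/- library, 6 in WT) held 0. H2ac15, H2ac21, H2ac22 and the testis-type H2ac1 had 8 or fewer counts summed. The 8 H2A genes of chromosome 13 outside the 3 large ones summed to 49 counts in the library labelled Ahi1-/- and 49 in WT, so the difference in H2A did not extend to their sum. All 14 H2A genes had 745 counts and 184 TPM in the library labelled Ahi1-/-, against 6948 counts and 1813 TPM in WT, 9.41-fold lower (log2 -3.23, interval -3.35 to -3.12). Without H2ac13, H2ac23 and H2ac24 the H2A sum was higher, with 309 counts in the library labelled Ahi1-/- and 110 in WT (log2 1.48, interval 1.16 to 1.80).

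Histone promoters are compact and often carry a TATA box and CCAAT boxes, and H2B promoters an octamer bound by POU2F1. RefSeq promoter windows of GRCm38.p6, running from 250 bases before to 50 after the gene start, were available for 48 members in 49 windows. Both strands were searched, and a window holding 2 motifs counts for each. TATAAA occurred in 59.2% of member windows and 13.6% of all 32851 windows. CCAAT occurred in 87.8% of member windows and 37.4% of all, and the H4 genes were the exception, with 3 of 9. ATGCAAAT occurred in 20.4% of member windows, 6 of 13 for H2B and 4 of 14 for H2A, and 1.74% of all. The windows of the 3 H2A genes that were lower and of H2ac18 are shown because they are the same histone type with opposite directions, with CCAAT (or ATTGG, its reverse) and TATAAA in capitals.
H2ac13 (chr13:21716162-21716461, plus strand): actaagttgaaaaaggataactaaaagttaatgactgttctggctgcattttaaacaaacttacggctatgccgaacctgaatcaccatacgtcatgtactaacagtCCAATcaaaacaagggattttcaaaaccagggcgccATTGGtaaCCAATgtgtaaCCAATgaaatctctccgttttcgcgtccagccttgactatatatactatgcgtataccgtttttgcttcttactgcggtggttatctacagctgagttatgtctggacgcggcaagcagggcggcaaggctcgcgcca
H2ac24 (chr13:21833426-21833725, minus strand): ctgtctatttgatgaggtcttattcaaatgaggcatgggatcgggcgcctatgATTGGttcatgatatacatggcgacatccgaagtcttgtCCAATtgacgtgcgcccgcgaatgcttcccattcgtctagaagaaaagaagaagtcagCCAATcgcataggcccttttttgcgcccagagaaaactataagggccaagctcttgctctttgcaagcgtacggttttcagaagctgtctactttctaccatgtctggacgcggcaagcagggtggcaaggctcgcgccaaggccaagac
H2ac23 (chr13:21810117-21810416, plus strand): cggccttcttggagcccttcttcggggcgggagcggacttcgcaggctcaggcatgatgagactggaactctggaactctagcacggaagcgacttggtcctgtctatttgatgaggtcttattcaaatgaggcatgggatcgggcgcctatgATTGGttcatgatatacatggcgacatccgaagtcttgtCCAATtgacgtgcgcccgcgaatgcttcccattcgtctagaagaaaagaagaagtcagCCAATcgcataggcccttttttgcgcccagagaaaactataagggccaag
H2ac18 (chr3:96245247-96245546, plus strand): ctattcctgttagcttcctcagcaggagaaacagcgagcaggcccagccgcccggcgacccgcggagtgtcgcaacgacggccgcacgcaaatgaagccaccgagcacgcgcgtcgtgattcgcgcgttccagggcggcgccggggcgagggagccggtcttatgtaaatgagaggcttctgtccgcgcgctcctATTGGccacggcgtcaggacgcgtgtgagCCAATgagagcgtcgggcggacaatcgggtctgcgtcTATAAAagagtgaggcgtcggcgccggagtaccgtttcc
The windows of H2ac23 and H2ac24 shared an unbroken run of 200 of their 300 bases, so these copies are alike outside the coding sequence too. H2ac13 and H2ac24 shared no run longer than 23 bases, and that run is the start of their coding sequence. H2ac13 and H2ac23 shared none longer than 7, and the H2ac23 window ends before its start codon. Each of the 4 windows held CCAAT in 1 orientation or the other. The exact string TATAAA was found only in that of H2ac18 among these 4, and there 11 bases past the annotated gene start. Similar strings, tatatata in H2ac13 and ctataagg in H2ac23 and H2ac24, were not counted. A match is a description of letters, not of binding. The H2bc4 promoter was not analysed here.

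H2B was higher in the library labelled Ahi1-/-. H2bc4 had 956 counts, 47.8 CPM and 155 TPM in the library labelled Ahi1-/-, against 120 counts, 6.05 CPM and 18.9 TPM in WT, which made it 7.90-fold higher (interval 6.52 to 9.63, log2 2.98). It was the most abundant member in the library labelled Ahi1-/-, where it ranked 1049 by TPM among all genes, against 6817 in WT. H2bc4 has a GENCODE transcript of 1156 bases in 2 exons that continues well past the stop codon. H2bc23 had 80 counts, 4.0 CPM and 4.24 TPM in the library labelled Ahi1-/-, against 7 counts, 0.35 CPM and 1.74 TPM in WT, 11.3-fold higher by counts (interval 5.25 to 29.1, log2 3.50). By TPM the log2 ratio of H2bc23 was 1.28 and by FPKM 1.13, which is smaller by over 4-fold. The ratio of count to TPM implied a transcript of 2123 bases in the library labelled Ahi1-/- and 459 bases in WT. GENCODE lists models of 381, 1254 and 2015 bases for this gene. In the H2bc23 model of 381 bases, 100% of the stretches, taken as for the copies above, also occur in another gene. The part of read division between copies in the H2bc23 values, and in their contrast with H2ac23, was not tested. H2bc23 lies beside H2ac23 on the opposite strand, and their promoter windows shared 267 bases in reverse complement. On either side of this shared stretch the neighbours differed in opposite directions, as H2bc23 had 80 counts in the Ahi1-/- library and 7 in WT, and H2ac23 had 35 in the Ahi1-/- library and 528 in WT.

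The other H2B genes were low. H2bc21, the mouse H2be gene known from olfactory neurons, had 34 counts in the library labelled Ahi1-/- and 49 in WT, H2bc6 had 23 in the Ahi1-/- library and 17 in WT, and H2bc3 had 7 in the Ahi1-/- library and 5 in WT, and all 3 intervals held 0. H2bc1, the testis-type H2B, had 0 counts in the Ahi1-/- library and 2 in WT. H2bc7, H2bc8, H2bc9, H2bc11, H2bc14, H2bc15, H2bc18 and H2bc22 had 2 to 7 counts in the library labelled Ahi1-/-. Of the 14 H2B genes, 1 was at 0 in the library labelled Ahi1-/-, against 7 in WT. Among all 17260 genes these numbers were 739 in the Ahi1-/- library and 1232 in WT. Summed, H2B had 1130 counts and 171 TPM in the library labelled Ahi1-/-, against 201 counts and 25.4 TPM in WT, 5.57-fold higher (log2 2.48, interval 2.26 to 2.70). Without H2bc4 the sum was 174 counts in the library labelled Ahi1-/- and 81 in WT (log2 1.09, interval 0.70 to 1.49).

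H3 and H4 form the core tetramer of the nucleosome, and their genes were low and mixed. H3c15 had 117 counts, 5.85 CPM and 21.2 TPM in the library labelled Ahi1-/-, against 24 counts, 1.21 CPM and 4.36 TPM in WT, which made it 4.83-fold higher (interval 3.09 to 7.84, log2 2.27). H3c4 had 29 counts in the Ahi1-/- library and 8 in WT (log2 1.85, interval 0.68 to 3.19). H3c2 had 0 in the library labelled Ahi1-/- and 16 in WT, 5.38-fold lower with the floor of 3 counts (interval from 3.89-fold). H3c2, H3c4 and H3c15 are among 7 H3 genes that encode the same protein. H3c3 (12 in the Ahi1-/- library, 13 in WT), H3c8 (6 in the Ahi1-/- library, 12 in WT) and H3c10 (3 in the Ahi1-/- library, 10 in WT) had intervals that held 0. H3c1, H3c6, H3c7 and H3c13 were not measured. Summed, H3 had 177 counts and 35.1 TPM in the library labelled Ahi1-/-, against 101 counts and 21.7 TPM in WT (log2 0.80, interval 0.44 to 1.16). Without H3c15 the sign turned, with 60 counts in the library labelled Ahi1-/- and 77 in WT (log2 -0.37, interval -0.88 to 0.13), so the H3 sum rests on that gene.

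No H4 gene reached 50 counts. H4c9, the H4 gene with the most counts, had 29 in the library labelled Ahi1-/- and 29 in WT (9.0 TPM in the Ahi1-/- library and 8.65 TPM in WT). H4c18 had 33 counts in the library labelled Ahi1-/- and 0 in WT, 10.9-fold higher with the floor of 3 counts (interval from 8.38-fold). H4c8 had 20 in the Ahi1-/- library and 0 in WT, 6.61-fold higher with that floor (interval from 4.89-fold). H4c18 shares 85.6% of its 50-base stretches with other genes, and the part of read division between H4 copies in these values was not tested. H4c3 (9 in the Ahi1-/- library, 2 in WT), H4c1 (5 in the Ahi1-/- library, 9 in WT) and H4c12 (8 in the Ahi1-/- library, 10 in WT) had intervals that held 0, and H4c4, H4c6, H4c11 and H4c14 were not measured. Summed, H4 had 110 counts and 33.4 TPM in the library labelled Ahi1-/-, against 59 counts and 17.5 TPM in WT (log2 0.89, interval 0.42 to 1.37).

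**Figure D2:**
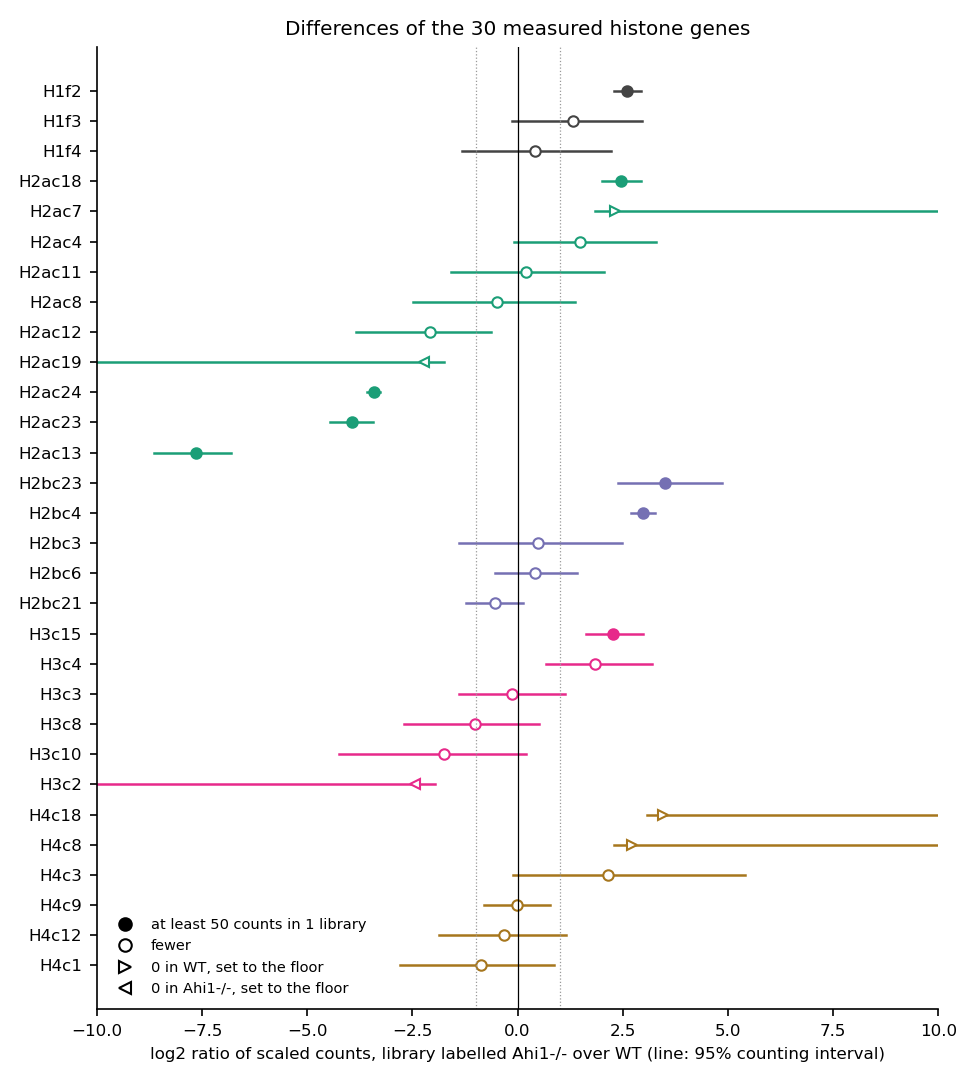
Log2 ratio of scaled counts, library labelled Ahi1-/- over WT, for the 30 measured histone genes with 95% counting intervals; filled points have at least 50 counts in 1 library, triangles are genes at 0 in 1 library set to 3 counts, and dotted lines mark 2-fold. The filled points sit between 2.27 and 3.50 or between -7.65 and -3.42, and most open points have intervals that cross 0.

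Over all 53 genes the summed level was 2779 counts and 523 TPM in the library labelled Ahi1-/-, against 7419 counts and 1895 TPM in WT, 2.69-fold lower (log2 -1.43, interval -1.49 to -1.37). The sum rested on the 3 large H2A genes, and without H2ac24 alone its log2 ratio was -0.48. The other 50 genes had 2343 counts and 406 TPM in the library labelled Ahi1-/-, against 581 counts and 106 TPM in WT, 4.0-fold higher (log2 2.0, interval 1.87 to 2.13). The types thus held very unequal RNA in both libraries, although their proteins occupy the nucleosome in fixed proportion. In the library labelled Ahi1-/-, H2A had 184 TPM and H2B 171 TPM. In WT, H2A had 1813 TPM and H2B 25.4 TPM.

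**Figure D3:**
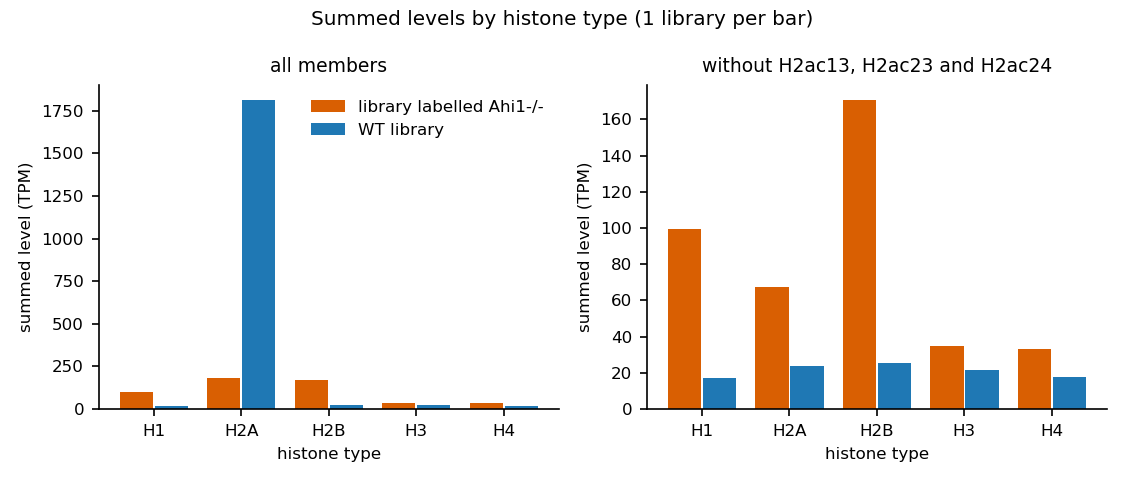
Summed level in TPM of each histone type in the library labelled Ahi1-/- (orange) and in WT (blue), for all members on the left and without H2ac13, H2ac23 and H2ac24 on the right, where the axis is shorter. The blue H2A bar of 1813 TPM on the left is 23.8 TPM on the right, and the orange bar is then the taller of the pair for every type.

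By position, 45 members lie on chromosome 13, in 1 stretch of 18 genes and another of 27, and 8 on chromosome 3. Over all genes with at least 50 counts, 16% were higher and 10.3% lower by the 2-fold rule. In the first stretch of chromosome 13, 1 gene was at least 2-fold higher and 3 lower, and the 10 measured genes had a median log2 ratio of -1.04. Its sum was 622 counts in the library labelled Ahi1-/- and 6934 in WT. In the second stretch, 2 genes, H2bc4 and H1f2, were higher and 0 lower, and the 16 measured genes had a median of 0.89. Its sum was 1742 counts in the library labelled Ahi1-/- and 344 in WT (log2 2.33). On chromosome 3, H2ac18 and H3c15 were higher and 0 were lower, and the sum was 415 counts in the library labelled Ahi1-/- and 141 in WT (log2 1.54). All 3 genes that were lower thus lay in the first stretch, which also held the higher H2bc23. H2ac23, H4c18 and H2ac24 are neighbours there in this order, and H4c18, with 33 counts in the Ahi1-/- library and 0 in WT, stands between H2A genes that were lower in the Ahi1-/- library.

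**Figure D4:**
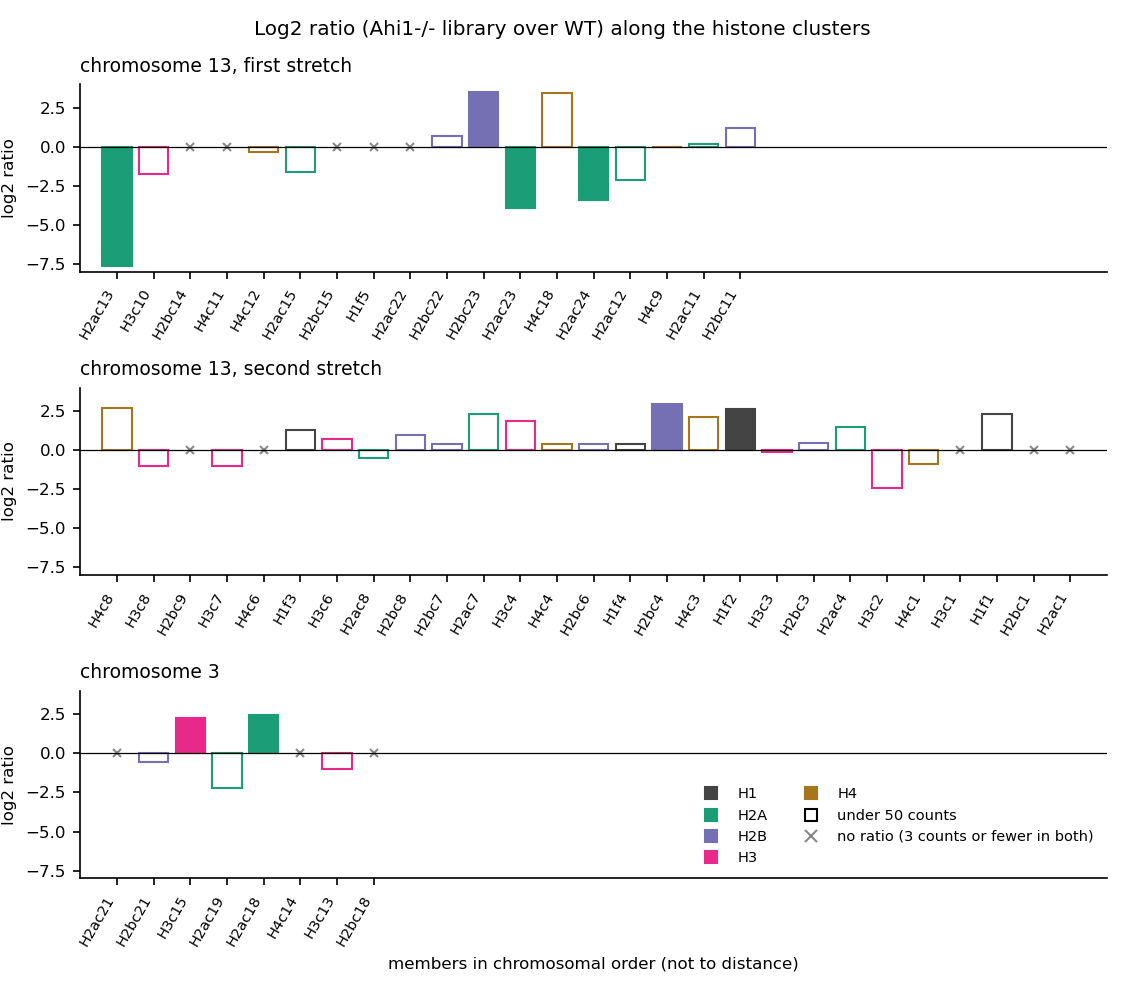
Log2 ratio, library labelled Ahi1-/- over WT, of the members in chromosomal order in the 2 stretches of chromosome 13 and on chromosome 3, coloured by type; filled bars have at least 50 counts in 1 library, a gene at 0 in 1 library is drawn at its floor value, and crosses are genes with 3 counts or fewer in both. H2ac13, H2ac23 and H2ac24 at -7.65, -3.93 and -3.42 are the only filled bars below 0, and all are in the first stretch.

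Histones encoded outside these clusters include variants that are used outside S phase as well, and their summed level was above that of the 53 members in both libraries. Of 15 such genes listed, 13 were in the table and 11 were measured, all 11 with at least 50 counts in 1 library. Of these, 5 were at least 2-fold lower and 0 higher in the library labelled Ahi1-/-, against 10.3% and 16% over all genes. Their median log2 ratio was -0.85. Cenpa, the centromeric H3, had 787 counts in the library labelled Ahi1-/- and 2513 in WT (3.22-fold lower). H2az1, the H2A.Z of promoters, had 3532 in the Ahi1-/- library and 10880 in WT (3.11-fold lower). The linker histone gene H1f10 had 557 in the Ahi1-/- library and 1600 in WT (2.90-fold lower), and H2ax, whose protein is phosphorylated at DNA breaks, had 1814 in the Ahi1-/- library and 5185 in WT (2.88-fold lower). The list summed to 2164 TPM in the library labelled Ahi1-/- and 3976 TPM in WT, which was 4.14 times the level of the 53 members in the library labelled Ahi1-/- and 2.10 times in WT.

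Of 30 genes whose products transcribe, cut or degrade histone mRNA, 27 had a log2 ratio below 0 and the median was -0.46. Among all 14485 measured genes, 7346 were below 0 and the median was -0.01. Of the 28 with at least 50 counts, 4 were at least 2-fold lower and 0 higher, a share of lower genes near the 10.3% over all genes, and these 4 are given as values. Slbp, the stem-loop binding protein, had 850 counts in the library labelled Ahi1-/- and 2843 in WT (3.37-fold lower, log2 -1.75, interval -1.87 to -1.64). Eri1, the exonuclease that trims the stem-loop end, had 885 in the Ahi1-/- library and 2147 in WT (2.45-fold lower). Pou2f1, the octamer factor, had 288 in the Ahi1-/- library and 607 in WT (2.13-fold lower), and Cstf2, a cleavage factor subunit, had 1027 in the Ahi1-/- library and 2111 in WT (2.07-fold lower). Npat, the coactivator of histone gene transcription, had 1039 counts in the library labelled Ahi1-/- and 1326 in WT and did not pass 2-fold (1.29-fold lower). Of 22 genes of histone chaperones and acetyltransferase, 8 were lower and 0 higher, against 10.3% and 16% over all genes, with a median of -0.76. Among them, Chaf1b and Chaf1a, subunits of the CAF-1 complex that loads H3 and H4 on new DNA, were 3.10-fold and 2.77-fold lower, Tonsl, which reads newly loaded H4, was 2.89-fold lower, and Hat1, which acetylates new H4, was 2.73-fold lower.

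Over all genes, 10.3% were lower and 16% higher by the 2-fold rule. Of 41 S phase genes, 36 were at least 2-fold lower and 1 higher in the library labelled Ahi1-/-, with a median log2 ratio of -1.59. The higher one, Ccne1 (cyclin E1), was named after its value was seen, had 937 counts in the library labelled Ahi1-/- and 443 in WT (2.10-fold), and did not reach 2-fold when scaled by total counts. Pola2, a DNA polymerase alpha subunit, had 653 counts in the library labelled Ahi1-/- and 3560 in WT (5.50-fold lower), and Cdt1, a licensing factor, had 624 in the Ahi1-/- library and 3404 in WT (5.50-fold lower). Rfc3, a clamp loader subunit, was 4.90-fold lower, and the helicase subunit gene Mcm5 was 4.77-fold lower. These genes moved with H2ac13, H2ac23 and H2ac24 and opposite to H1f2, H2bc4, H2ac18 and H3c15, and their part in either result was not tested. The 30 measured histone genes ran from -7.65 to 3.50, whereas the S phase genes ran from -2.46 to 1.07.

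**Figure D5:**
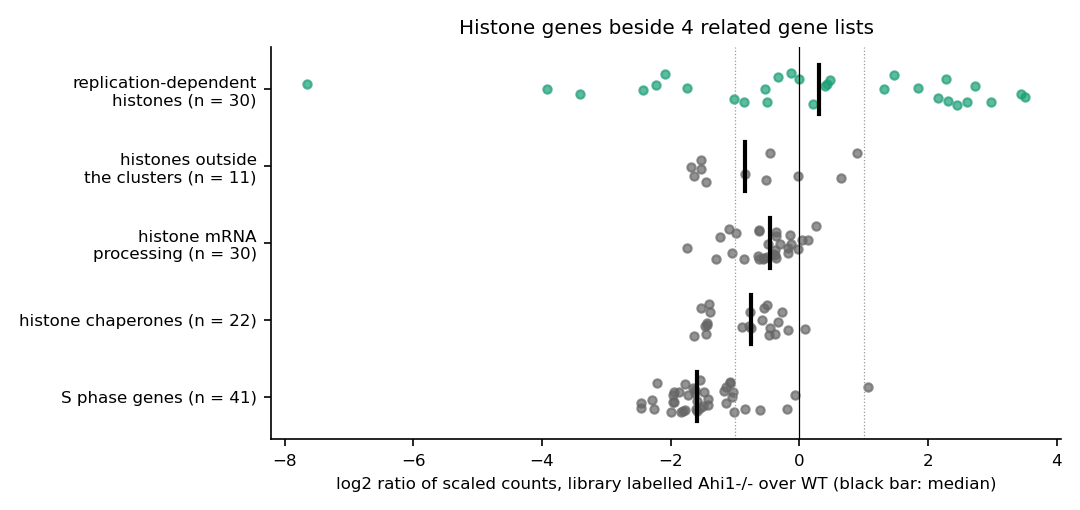
Log2 ratio of scaled counts, library labelled Ahi1-/- over WT, of each measured gene (points, with vertical scatter for legibility) and the median (black bar) for the replication-dependent histone genes and 4 other lists; dotted lines mark 2-fold. The medians are 0.31 for the replication-dependent histones, -0.85 for histones outside the clusters, -0.46 for histone mRNA processing, -0.76 for chaperones and -1.59 for S phase genes.

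The deposited levels can be tied to transcript length for members with 1 reference transcript and at least 10 expected counts in a library. Across 29 such values of 20 genes, the ratio of count to TPM gave a length within 5.34 bases of the RefSeq length, with a median difference of 0.22 bases. The line behind this was fitted on the same values without those of the longer H2bc21, 14 in the Ahi1-/- library and 13 in WT, with a constant of 47.8 bases in the Ahi1-/- library and 49.0 bases in WT. Values under 10 counts were left out and some lay further off, such as H1f1 in WT with 722 bases against 745 in RefSeq. For H2ac18, H2ac23, H2ac24 and H1f2 the deposited level was thus computed on a short transcript that ends just past the stem-loop in RefSeq. For H2bc4 the implied length was 726 bases in the library labelled Ahi1-/- and 728 bases in WT, so its difference did not come with a change of model. A second deposited table, of FPKM values, holds 3872 genes, 99.8% of them at least 2-fold apart, and 14 members. All 9 members above 0 in both libraries there had the same direction as by counts. Both tables come from the same libraries, so this is not a separate check.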

How the data were processed

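RNA sequencing gave 1 library per genotype, and the authors deposited expected counts and TPM for 17260 genes in 1 table, per the file headers. FPKM values for 3872 genes were deposited by the authors in a second table. Per the submitters' processing notes, HISAT2 2.0.4, Bowtie2 2.2.5, RSEM 1.2.12 and build mm8 were used, with no role or order named. Library preparation started from total RNA and included an A-tailing mix at a later step, per the labels' protocols. The sources used here do not give selection of poly(A) RNA, annotation, filters or the use of strand. Column heads CON and EXP were read as control (WT) and experimental (Ahi1-/-), and each direction rests on this. In the deposited table, 64.4% of the counts of the library labelled Ahi1-/- and 65.1% of those of WT were whole as written, and the rest held fractions.

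Counts were rounded and scaled with edgeR 4.0.16 TMM (R 4.3.3) on the whole table. Ratios are scaled counts, Ahi1-/- over WT, with exact Clopper-Pearson 95% intervals, which cover counting error only. CPM are relative to the TMM effective sizes. Where 1 library had 0 counts, that 0 was replaced for the ratio by a floor of 3 counts (0.150 CPM in the library labelled Ahi1-/-, 0.151 CPM in WT). The interval was computed with the 0 itself, has no upper limit of fold, and can start below the floor ratio. Genes were called higher or lower at 2-fold or more with 50 or more counts in the higher library. Intervals of sums treat the expected counts as counts.

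Members with at least 50 counts in 1 library were named with their values and the others by name or range. Of each other list, up to 4 called genes with the largest ratios were named, plus Ahi1, Slbp and Npat. Members, lists and rules were chosen with earlier results of these data known. The calculation was tested on simulated data. Python 3.11.15 with numpy 2.4.6, pandas 2.3.3, scipy 1.17.1 and matplotlib 3.10.9 was used after scaling. All 53 genes were found in RefSeq, which lists 63 protein-coding genes with symbols of the rule. The deposited table thus does not hold every such gene. Stem-loops and coding sequences came from GENCODE M21 (GRCm38) and promoters from RefSeq (GRCm38.p6). Both differ from the build in the notes, so coordinates are given for printed sequences only. DESeq2 1.42.0 size factors, total counts, the upper quartile, TPM, other minimums and sums without the largest members were tried as alternatives. Of the erythroid list, 1 marker is not reported here and is left out of its sums.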

Additional observations from a re-analysis of the deposited data

How the results depend on the processing

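Of 134 alternatives, 113 left the value close to that reported, 18 moved it and 3 turned its sign. Close means a count of genes within 1.5-fold of that reported, or a ratio or median inside its interval. For the median of measured members that interval was wide, from -0.54 to 1.85. With identical proteins merged the median was 0.99, in place of 0.31, and it counts as close by this rule. With a minimum of 10 counts, 11 members were higher and 8 lower, in place of 5 and 3, and with 200 counts 3 were higher. With identical proteins merged, 1 unit was lower. Without H2ac13, H2ac23 and H2ac24, a choice made after seeing the data, 0 were lower, and the log2 ratio of the summed counts turned to 1.48 for H2A and 2.0 for all members. With at least 100 counts summed, the median of measured members was 2.27. Without the member with the most counts, the log2 ratio of the sum was 1.08 for H1, -3.0 for H2A, 1.09 for H2B, -0.37 for H3, 1.42 for H4 and -0.48 for all members. Scaling by total counts, whose log2 size ratio was 0.13 in place of 0.01, gave -3.35 for H2A, -1.54 for all members and 0 higher S phase genes. By TPM, H2B was 2.75 and all members -1.86. Among the 8 members with at least 50 counts, for which single ratios were recomputed, H2bc23 moved, to 1.28 by TPM and 1.13 by FPKM. Where genes were left out, the shift follows from that, and otherwise the cause was not tested. Depth limits the 45 members under 50 counts, and without replicates no variation between cultures could be measured. No paired analysis was possible because each genotype has 1 library and no result comes from a test.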

Other observations

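Genes of other families lie between the histone genes. In the first stretch of chromosome 13, Zfp184 had 65 counts in the library labelled Ahi1-/- and 119 in WT (log2 -0.89, interval -1.34 to -0.44). Prss16, a serine protease gene of thymus, had 21 counts in the Ahi1-/- library and 88 in WT (log2 -2.08, interval -2.84 to -1.38). H4bc24, a symbol that the member rule leaves out, had 0 counts in the Ahi1-/- library and 36 in WT, and Pom121l2 had 6 in the Ahi1-/- library and 0 in WT. In the second stretch, Hfe, which in humans is mutated in hereditary iron overload, had 176 counts in the library labelled Ahi1-/- and 96 in WT (log2 0.86, interval 0.49 to 1.24), and Trim38 had 2 in the Ahi1-/- library and 0 in WT. No other gene of the table lay within the stretch on chromosome 3. These neighbours were chosen by position alone.

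Among histones outside the clusters, 2 genes had a log2 ratio above 0. H2aj had 971 counts in the library labelled Ahi1-/- and 612 in WT (log2 0.65), and Macroh2a2, a macroH2A gene, had 1078 in the Ahi1-/- library and 576 in WT (log2 0.89). Macroh2a1 had 2489 counts in the Ahi1-/- library and 2504 in WT, with an interval from -0.10 to 0.06. The H3.3 genes H3f3a and H3f3b were lower by 1.43-fold and 1.37-fold in the library labelled Ahi1-/-. The linker histone gene H1f0 was 1.80-fold lower.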
